A study of Oryza sativa with 12 samples.

Results

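CHI and CHS1 are the rice genes of chalcone isomerase and chalcone synthase, the enzymes of the first committed steps of flavonoid synthesis. They were taken by symbol from the table of gene counts, as 2 of its 37878 genes, and followed across 4 tissues of the seed. These were the embryo, the starchy endosperm, the aleurone that surrounds it, and the pericarp, a maternal tissue of the fruit wall. For each tissue of Oryza sativa 3 libraries, described as biological replicates, were sequenced. The plants grew in the field and received no treatment. The labels name neither the cultivar nor the seed stage, nor whether seeds were shared between tissues.

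Chalcone synthase joins a coumaroyl unit from the phenylpropanoid pathway with malonyl units to give a chalcone. Chalcone isomerase closes the chalcone's ring to a flavanone, from which flavones, flavonols, anthocyanins and proanthocyanidins are made. In rice grain, the proanthocyanidins of red varieties and the anthocyanins of black ones collect in the pericarp and seed coat.

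CHI lies on chromosome 3 from 38745981 to 38746936 on the reverse strand, a span of 956 bp. CHS1 lies on chromosome 11 from 16095731 to 16098590, also on the reverse strand, a span of 2860 bp. The coordinates are those of the deposited table, which does not name its build. No other gene of the table overlapped either. Chalcone synthase belongs to a family of related genes, and how reads shared between copies were counted is not given, so the values of CHS1 are uncertain in that respect.

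Per library, pericarp had 2879282 to 6301388 counts, aleurone 5689112 to 16005961, embryo 14205388 to 18169845 and endosperm 6367350 to 24412371. The pericarp libraries agreed least with each other. Of 9880 genes with a count in any of them, 1718 (17.4%) had one in all 3, against 39.5% in aleurone, 37.5% in endosperm and 67.3% in embryo. WAXY, the granule-bound starch synthase of the starchy endosperm, marked its tissue, at 23088 to 81668 CPM (counts per 1000000 at the TMM-scaled library size) in endosperm and at most 2639 elsewhere. OSH15, OSH71 and WOX4, homeobox genes of embryo meristems, were all counted in each embryo library. Their summed level there was 56.0 to 76.8 CPM. The other tissues held 0 to 54.8 CPM of it, and no endosperm library had a count of any of the 3. No gene on the marker lists was specific to pericarp: the 5 genes listed for maternal and transfer tissues (SUT1, SWEET11, SWEET14, CIN2 and LTP) summed to 1220 to 1594 CPM in pericarp and to 1415 to 2111 in aleurone.

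CHI was counted in 10 of the 12 libraries: in all of pericarp, aleurone and embryo, and in 1 of 3 in endosperm. In pericarp it stood at 21.3, 311 and 1587 CPM in libraries 1, 3 and 4. The highest of these values was 74.5 times the lowest, so the pericarp held both the highest CHI level of the series and one below every aleurone and embryo library. In aleurone CHI stood at 127, 65.4 and 188 CPM in libraries 1, 2 and 3, and in embryo at 132, 152 and 85.0 CPM in libraries 2, 3 and 4. The ranges of aleurone and embryo overlapped, and these 6 libraries lay closer together than the 3 of pericarp. In endosperm CHI had no count in libraries 2 and 4, and 31.5 CPM, from 163 reads, in library 3. Libraries 2 and 4 were the deepest of the series by total counts alone. Their TMM-scaled sizes, 8292144 and 11122625, were below those of the embryo libraries, 18008603 to 21668814. A count of 0 allowed at most 0.362 and 0.270 CPM in endosperm 2 and 4.

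CHS1 was counted in 5 of the 12 libraries, and 3 of these were the embryo libraries. It stood at 44.3, 17.5 and 2.12 CPM in embryo libraries 2, 3 and 4, from 961, 316 and 44 reads. In pericarp it stood at 42.4 CPM in library 3, from 324 reads, and had no count in libraries 1 and 4. No aleurone library had a CHS1 read, which allowed at most 0.104 CPM over that tissue. In endosperm a single read, in library 3, gave 0.193 CPM. Embryo was thus the one tissue with CHS1 in every library, while its highest pericarp value was about level with its highest embryo value.

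**Figure D1:**
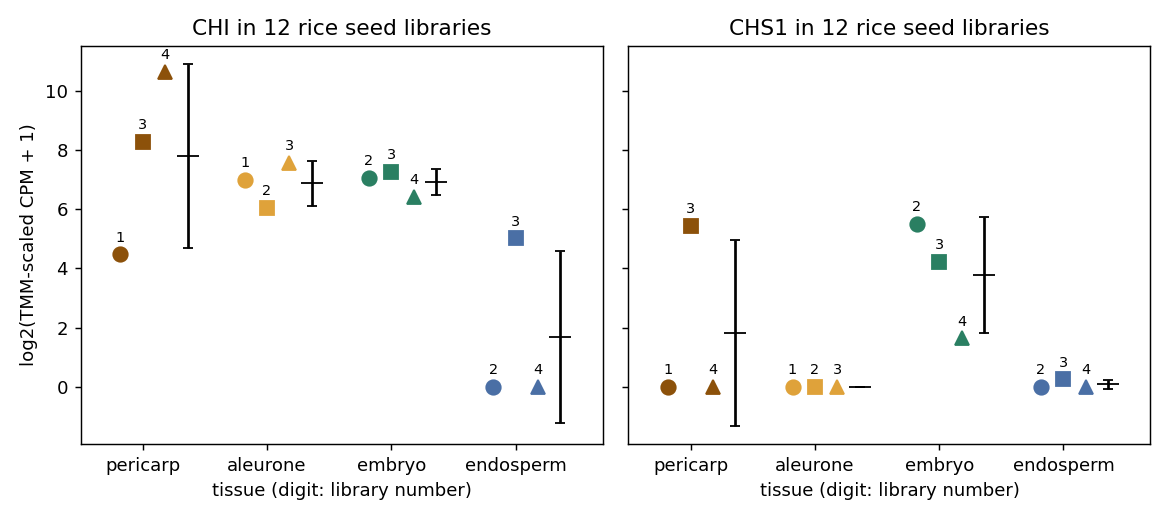
Level of CHI (left) and CHS1 (right) in each library, as log2(TMM-scaled CPM + 1) on the vertical axis and by tissue on the horizontal axis; digits are library numbers, and the black bar beside each tissue is the mean with its SD over 3 libraries. CHI spans 21.3 to 1587 CPM in pericarp and sits between 65.4 and 188 CPM in aleurone and embryo, while CHS1 is above 1 CPM in the 3 embryo libraries and pericarp 3 alone.

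Between tissues, mean CHI was ordered pericarp (640 ± 833 CPM), aleurone (127 ± 61.1), embryo (123 ± 34.5) and endosperm (10.5 ± 18.2; SD, n = 3 libraries each). Pericarp and aleurone did not differ beyond their spread, nor did aleurone and embryo. The aleurone and embryo ranges did not overlap that of endosperm, whereas the lowest pericarp library, at 21.3 CPM, was below the highest endosperm library. The share of all genes whose ranges separate in this way was not counted. The edgeR F test between the tissues did not pass for CHI (adjusted p = 0.228), in a fit that called 1.78% of the 16347 genes tested. In bulk tissue, fewer cells that hold a transcript and less of it per cell cannot be told apart.

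No pair of tissues passed for CHI. The largest difference was between pericarp and endosperm, where the log2 fold change of CHI was 5.93 ± 2.33, higher in pericarp (± SE; edgeR quasi-likelihood F, Benjamini-Hochberg adjusted p = 0.148). That comparison called 2.46% of genes. It rested on pericarp 4 for its lead: without that library it was 4.0 (edgeR adjusted p = 0.285), beside 3.74 for aleurone and 3.88 for embryo against endosperm. CHI was higher than in endosperm by 3.60 ± 2.09 in aleurone and by 3.56 ± 2.09 in embryo (edgeR adjusted p = 0.392 and 0.326, with 0.0428% and 0.685% of genes called). The fitted difference between aleurone and embryo was 0.04 ± 1.88 (edgeR adjusted p = 1, 0.447% of genes called), an error that allows a wide difference either way.

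Against pericarp, CHI fell by 2.34 ± 1.98 in aleurone and by 2.38 ± 1.98 in embryo on the log2 scale, and neither difference passed (edgeR adjusted p = 0.55 and 0.453, with 1.63% and 2.79% of genes called). Both rested on pericarp library 4. Without it, the differences were -0.26 and -0.12 (adjusted p = 1 for both).

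**Figure D2:**
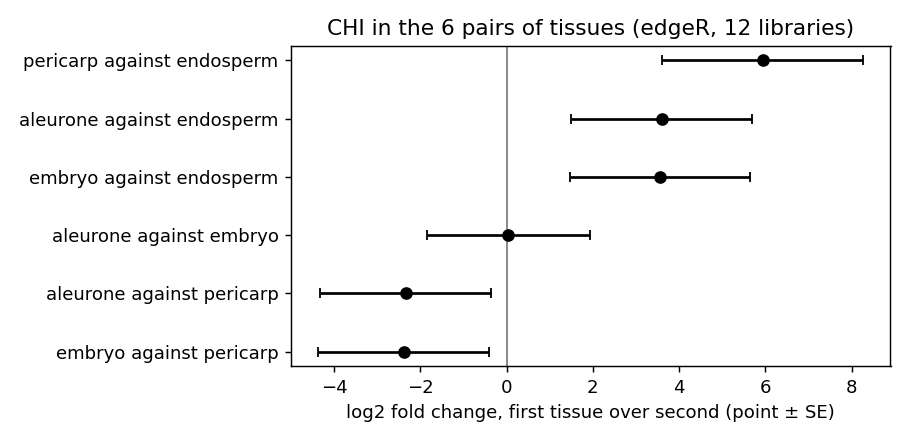
Fitted log2 fold change of CHI in each of the 6 pairs of tissues (points) with its standard error (bars), from the edgeR fit of 12 libraries; the vertical line marks no difference. The 3 comparisons with endosperm lie to the right of 0, from 3.56 to 5.93, and aleurone against embryo lies at 0.04.

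Endosperm library 3 set the size of the contrast with endosperm. CHI was at 31.5 CPM there and at 0 in the other 2, and without it the comparison of pericarp with endosperm passed (edgeR adjusted p = 0.0225), while those of aleurone and embryo did not (0.178 and 0.0664). Without that library, 615 of 18349 genes were called in pericarp against endosperm. The endosperm group then held no CHI read, so the fitted folds of that comparison are folds over 0 counts and are no bound. Of 5137 genes with at least 100 reads in endosperm 3, 348 (6.77%) had none in both other endosperm libraries, and CHI was one of these. WAXY, at 23088 CPM, was lowest of the endosperm libraries in library 3, against 70859 and 81668 CPM in libraries 2 and 4. Of the 5 maternal and transfer genes, SWEET14, a sugar transporter gene, was highest in endosperm 3, at 438 CPM against 273 and 15.9 in libraries 2 and 4. LTP was lowest there, at 10.1 CPM against 84.8 and 79.9, SUT1 and SWEET11 were at 1.93 and 0.193 CPM, and CIN2 had no read in any endosperm library. OLE18, LEA19 and RAB16C, genes of oil bodies and late embryogenesis, summed to 270 CPM in endosperm 3, between 554 and 101 in libraries 2 and 4. Of these, OLE18 was at 102 CPM in endosperm 3 against 385 and 72.6, and LEA19 at 154 against 142 and 11.8. RAB16C was lowest in endosperm 3, at 13.7 CPM against 26.3 and 16.5. The part of other tissues' RNA in the CHI value was not tested.

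The headers name 2 sequencing lanes, and CHI was looked at within each. In lane 5, CHI stood at 311 and 1587 CPM in pericarp, 188 in aleurone, 152 and 85.0 in embryo, and 31.5 and 0 in endosperm, so both pericarp libraries were above all others. In lane 6 the order differed, with 21.3 CPM in the single pericarp library, 127 and 65.4 in aleurone, 132 in embryo and 0 in endosperm. The endosperm libraries were the lowest in both lanes, and pericarp changed from the highest tissue in lane 5 to below aleurone and embryo in lane 6. With lane as a term no CHI comparison passed (edgeR adjusted p from 0.192 to 1 over the 6 pairs).

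For CHS1, mean levels were ordered embryo (21.3 ± 21.4 CPM), pericarp (14.1 ± 24.5), endosperm (0.0645 ± 0.112) and aleurone (0; SD, n = 3 libraries each). Embryo and pericarp did not differ beyond their spread, and endosperm and aleurone were both at or under the floor, so no fold between them is given. The embryo values overlapped with neither the aleurone nor the endosperm values, and here too the share of all genes that separate so was not counted. The highest embryo value, 44.3 CPM, was 20.9 times the lowest.

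Set against the floor of 3 reads over the aleurone libraries, CHS1 was at least 206-fold higher in embryo and 136-fold higher in pericarp, the latter through library 3 alone. Without embryo 2 the bound for embryo was 94.9-fold. Against the single endosperm read, the ratio of summed counts per library size was 538 for embryo, with a counting interval of 96.3 to 21251, and 363 for pericarp, with an interval of 64.6 to 14368 (exact, 95%). None of these differences passed in edgeR: the Benjamini-Hochberg adjusted p was 0.238 for embryo against aleurone, 0.149 for pericarp against aleurone, 0.202 for embryo against endosperm and 0.188 for pericarp against endosperm. Embryo and pericarp gave an adjusted p of 0.954, and the F test between tissues 0.153. The unadjusted p of that F test was 0.0482, a value below which many genes of the table fell, since 5283 of 16347 were under 0.05.

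An exact two-sided permutation test of log2(CPM + 1) allows p = 0.1 at the smallest for 3 libraries against 3. It gave that value for CHI in aleurone and in embryo against endosperm, and for CHS1 in embryo against aleurone and against endosperm, with an adjusted p of 0.3 over the 12 pairs tested. The other 8 pairs gave exact p from 0.2 to 1. Over the 4 tissues together, the exact permutation test of the 369600 arrangements of libraries gave p = 0.0358 for CHI and p = 0.0636 for CHS1. Adjustment across all genes was not made for these tests. The plan listed no exact test of pairs or of the 4 tissues, and those over the 4 tissues were chosen after the data were seen.

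The genes differed in how far replicate libraries stood apart. In embryo, where both were counted in every library, the highest CHI value was 1.79 times the lowest, and 58.7% of the 12829 genes counted in all 3 embryo libraries had a range at least that wide. CHS1 had a 20.9-fold range there, which 1.58% of those genes matched or passed. The embryo libraries were of similar depth, and embryo 4, the lowest in CHS1, had 16862 genes with a count, the most of the 3. The cause of the CHS1 range in embryo was not tested. In aleurone the CHI range was 2.87-fold, which 53.7% of 6310 genes matched or passed. In pericarp the 74.5-fold range of CHI was matched or passed by 21.5% of the 1718 genes counted in all 3 libraries, whose median range was 3.88-fold.

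**Figure D3:**
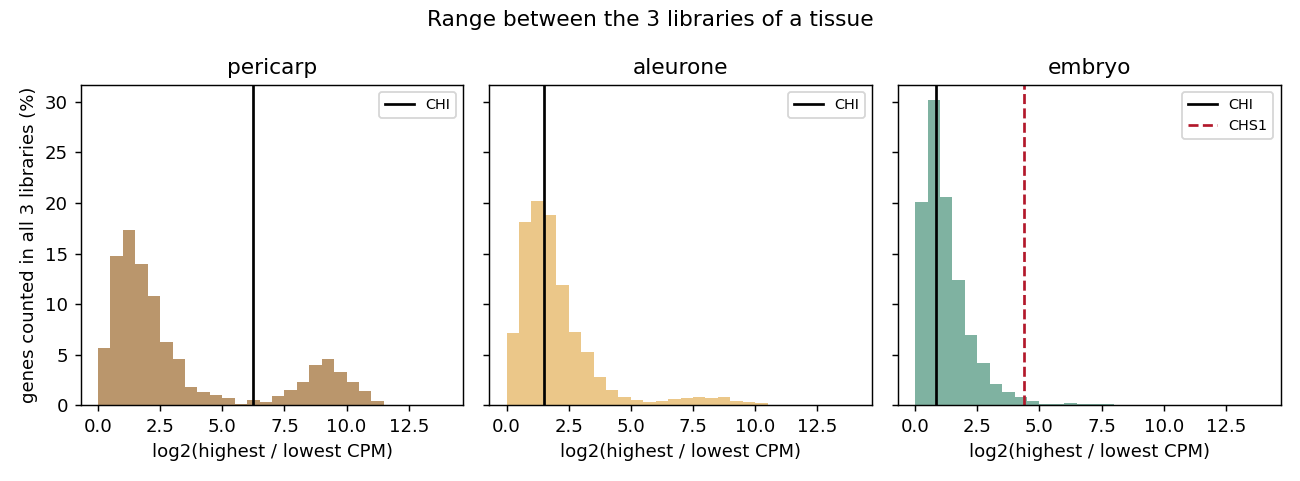
Ratio of the highest to the lowest CPM among the 3 libraries of a tissue, on a log2 axis, for all genes counted in each of them (bars, percent of genes), with CHI as a solid line and CHS1 as a dashed line. CHI lies in the middle of the embryo and aleurone distributions, and CHS1 in the upper tail in embryo, where 1.58% of genes have a range as wide.

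The pericarp values of CHS1 followed a pattern common in that tissue. Of 4376 genes with at least 100 reads in pericarp 3, 1346 (30.8%) had no read in pericarp 1 and 4. CHS1 was one of them, and so were OSH15, the embryo meristem gene, at 54.8 CPM, and ZB8, at 71.7 CPM. OSH71 and WOX4 had no read in pericarp 3. CYCB2-1 and MCM3, the genes listed for dividing cells, summed to 310 to 345 CPM in embryo and had no read in pericarp 3. MCM7 and NEK2 were at 83.3 and 22.5 CPM there and at 0 in pericarp 1 and 4. Both were picked for their likeness to CHS1 over these libraries, so that pattern follows from the choice and is no separate evidence. The part of embryo RNA in the pericarp 3 value of CHS1 was not tested. WAXY, the starch marker, stood at 2320, 974 and 343 CPM in pericarp 1, 3 and 4, the reverse of the order of CHI. The summed level of OLE18, LEA19 and RAB16C had the order of CHI, at 1753, 2235 and 2683 CPM in the same libraries. OLE18 stood there at 1259, 1556 and 1696 CPM, and LEA19 at 494, 643 and 987. RAB16C did not have that order, at 0, 36.2 and 0.499 CPM. The part of endosperm, aleurone or embryo RNA in the CHI values of pericarp was not tested.

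Reads of CHI and CHS1 within a library can be set side by side as a ratio whose change between libraries does not depend on gene length, although its size does. In embryo there were 2.98 CHI reads for each CHS1 read in library 2, 8.67 in library 3 and 40.0 in library 4. The ratio was 7.34 in pericarp 3, inside the embryo range. Elsewhere CHI was read without CHS1, with 1718, 387 and 1784 CHI reads in aleurone 1, 2 and 3, 177 in pericarp 1 and 9540 in pericarp 4, except for the single CHS1 read beside 163 of CHI in endosperm 3. The share of a library that CHI took was 0.331% in pericarp 4, or 3313 reads per 1000000 (exact 95% interval 3247 to 3380), and 0.0546% in pericarp 3. In pericarp 1 it was 0.00281%, and in the aleurone and embryo libraries it ran from 0.0068% to 0.0193%.

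Few other genes of the pathway carried a symbol. Of 28 symbols listed for flavonoid synthesis 3 were matched, CHI, CHS1 and ANS1, of 32 for the phenylpropanoid and monolignol steps none, and of 16 for flavonoid regulators GAM1. A gene that was not matched can be in the table without a symbol. ANS1, named for anthocyanidin synthase, the enzyme that makes coloured anthocyanidins, had no read in any of the 12 libraries. Its symbol is the sole link to that function here. GAM1, a MYB factor known for the gibberellin response of aleurone, was at 69.9 CPM in pericarp 1 and 0 in pericarp 3 and 4. It stood at 4.96, 0 and 20.7 CPM in aleurone 1, 2 and 3, at 2.08 to 8.22 in embryo and at 0 in endosperm. ZB8, taken by its symbol alone as a gene of phenylalanine ammonia-lyase, the enzyme of the entry step of phenylpropanoid synthesis, was at 71.7 CPM in pericarp 3 and 0 in pericarp 1 and 4. It reached 23.5 CPM in aleurone 3 and 8.54 in endosperm 4, and stood below 1 CPM in the 7 other libraries. Of CHI, CHS1, GAM1 and ZB8, the 4 of these genes that were tested, none passed in any pair or in the F test (edgeR adjusted p from 0.148 to 1).

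Among the 286 tested genes with a symbol, those most like CHI over the 12 libraries, by Pearson r of log2(CPM + 1), were infA (r = 0.854), LEA19 (0.785), RBR1 (0.744), ITPK6 (0.727) and CHLH (0.719). The 12 points share 4 tissues and their libraries, so these values describe the resemblance and carry no test. infA, a chloroplast translation initiation factor gene, had 163 CPM in pericarp on average, 47.3 in aleurone, 44.1 in embryo and 15.2 in endosperm. The late embryogenesis gene LEA19 was at 708, 1925, 1295 and 103 CPM in the same order. ITPK6, an inositol phosphate kinase gene, had 421 CPM in pericarp 4 and 0 in pericarp 1, with 145 to 185 CPM in every aleurone and embryo library. CHLH, a subunit gene of the chlorophyll-making magnesium chelatase, was at 70.5 and 71.2 CPM in pericarp 3 and 4 and at 0 in pericarp 1 and all endosperm libraries. It was also at 0 in aleurone 2 and embryo 3, and at 3.78 to 13.5 CPM in the other aleurone and embryo libraries. RBR1, a retinoblastoma-related cell cycle gene, was at 0 in pericarp 1, aleurone 2 and all endosperm libraries, and highest in embryo.

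For CHS1 the 5 were BASS4 (r = 0.922), LTP110-A_2 (0.916), OSH15 (0.908), MCM7 (0.887) and NEK2 (0.863). All 5 were counted in the 3 embryo libraries and in pericarp 3, and in no aleurone or endosperm library; LTP110-A_2 also had 0.666 CPM in pericarp 4. BASS4, of the bile acid and sodium symporter family, was at 76.0 CPM in pericarp 3 and 10.6 to 11.4 in embryo. MCM7, a subunit of the replicative helicase, was at 83.3 CPM in pericarp 3 and 22.8 to 75.5 in embryo. CHS1 stood at 44.3 CPM in embryo 2 and 2.12 in embryo 4, where NEK2, a mitotic kinase gene, stood at 88.6 and 86.8 CPM. Between CHI and CHS1 themselves, r was 0.349 and rho 0.359 over the 12 libraries. The 5 genes named for each were the most alike of the 286, so their higher r follows from the choice. Where 0.349 stands among all 286 was not counted.

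**Figure D4:**
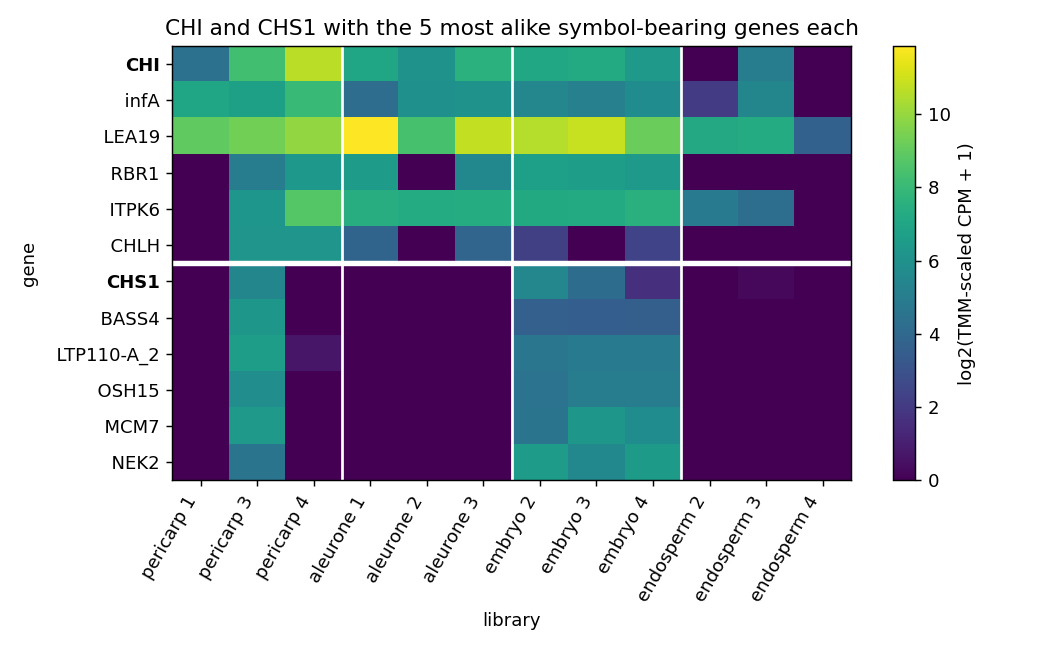
Level of CHI and CHS1 (bold) and of the 5 symbol-bearing genes most like each, as log2(TMM-scaled CPM + 1) by colour, with libraries in columns grouped by tissue. The CHS1 group is dark in every aleurone and endosperm library and lit in pericarp 3 and embryo; CHI is lit in all but endosperm 2 and 4.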

How the data were processed

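RNA from 4 tissues of rice seed was sequenced, with 3 libraries per tissue. The deposited table lists 37878 genes and gives total read counts per gene, not normalized, per the file headers. Its 36 RPKM, TPM and CPM columns were not used. Column names give the tissue but not the sample. The aligner, genome build, use of strand and treatment of reads that map to several genes are not stated.

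Columns were assigned to tissues by header letters: Al (aleurone), Em (embryo) and Pc (pericarp), which left Se for endosperm. The number after these letters names each library here and differs from the title's.

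In R 4.3.3, edgeR 4.0.16 tested the counts after filterByExpr (minimum count 10) had kept 16347 genes and TMM factors had scaled the libraries. A quasi-likelihood model (glmQLFit, glmQLFTest) of tissue alone was fitted to the 12 libraries together. Calls needed a Benjamini-Hochberg adjusted p under 0.05 across all genes tested and, in pairs, a fold of 2 or more. Standard errors were the size of the log2 fold change divided by the root of F. A check of the fit on simulated counts used far less spread between libraries than these data have (common dispersion 3.49). It therefore cannot show how the fit behaves on them.

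CPM are counts per 1000000 at the TMM-scaled library size. A floor is 3 counts over the libraries named. Exact binomial intervals (Clopper-Pearson, 95%) and floors cover counting error only, since PCR reads without molecular identifiers are not independent molecules. DESeq2 1.42.0, limma voom (limma 3.58.1), other scalings, no filter, sequencing lane, the header number as a block, fits of 2 tissues and each library left out were alternatives. The members and gene lists were chosen with earlier results of these data known. The genes named are the members, the matched genes of their pathway, tissue markers and, for each member, the 5 symbol-bearing genes of 286 tested with the highest Pearson r over the libraries. ZB8 was added after the symbols were seen.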

Additional observations from a re-analysis of the deposited data

How the results depend on the processing

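No CHI or CHS1 comparison passed the main test, nor with DESeq2 size factors, library totals alone, no filter, lane as a covariate or the pericarp libraries left out. DESeq2 called CHI in pericarp against endosperm (log2 fold change 5.98) and CHS1 in pericarp against endosperm (adjusted p = 0.0432), aleurone against pericarp (2.41e-11), embryo (1.40e-11) and endosperm (5.03e-05, 0 reads against 1). Of 16347 genes, DESeq2 called 4975 in pericarp against endosperm. In aleurone it called 4492 against pericarp, 1366 against embryo and 2400 against endosperm. Limma voom called CHI in embryo against endosperm (log2 fold change 7.65) and CHS1 in embryo against endosperm (adjusted p = 0.0243) and aleurone (0.0256) and in the F test (0.0443). A fit of the 2 tissues alone called CHS1 in embryo against endosperm (0.0346) and could not test it in 3 pairs, where its counts were filtered out. That fit of embryo and endosperm called 4266 of 14477 genes. The exact permutation test of CHI gave p = 0.0358. The cause was not tested. TPM were not compared as planned.

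With the replicate block CHI passed in pericarp against endosperm (log2 fold change 6.70, adjusted p = 0.0331), the one call it changed. Libraries of the same number did not deviate together (r across genes from -0.0418 to 0.0312 over 13 pairs). CHI in aleurone against embryo, fitted at 0.04, changed sign to -0.58 with library totals, which shift all genes there by -0.56 (other pairs by -0.99 to 1.67), and to -0.066 without pericarp.

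With each library left out in turn, CHI log2 fold changes against endosperm ran from 3.06 to 13.57 (aleurone), 3.04 to 13.55 (embryo) and 4.0 to 15.83 (pericarp), highest without endosperm 3, where endosperm had 0 reads and the fold depends on the prior count, against pericarp from -2.83 to -0.26 (aleurone) and -2.85 to -0.12 (embryo), and from -0.39 to 0.33 in aleurone against embryo. CHS1 adjusted p ran from 0.65 to 1 (aleurone against endosperm), 0.162 to 0.352 (embryo, endosperm), 0.172 to 0.642 (pericarp, endosperm), 0.126 to 1 (aleurone, pericarp), 0.292 to 0.485 (aleurone, embryo) and 0.15 to 1 (embryo, pericarp). F test adjusted p ran from 0.0605 to 0.452 (CHI) and 0.0977 to 0.253 (CHS1).

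Genes called per comparison, 7 to 456 as reported, numbered 12 to 392 with DESeq2 size factors, 0 to 286 with totals, 31 to 366 unfiltered, 0 to 186 with lane, 66 to 580 with the block, 0 to 5638 in fits of 2 tissues, 213 to 840 without pericarp, 1366 to 5316 with DESeq2 and 719 to 7222 with voom. With libraries left out in turn they numbered 0 to 66, 49 to 253, 113 to 1015, 0 to 860, 33 to 108 and 108 to 925 in the pairs as ordered for CHS1, and 60 to 898 in the F test.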
